A study of Mus musculus with 378 samples.

Results

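Islets with much RNA for the retinaldehyde dehydrogenase Aldh1a3 were set against islets with little of it, in a collection of pancreatic islet libraries with 1 library for each mouse. The members were chosen by their own Aldh1a3 values: the deposited variance-stabilised value was turned into a z-score within females and within males, and the top 25% and the bottom 25% of libraries were taken. This gave 95 Aldh1a3-high islets (50 females, 45 males) and 95 Aldh1a3-low islets (45 females, 50 males), or 25.1% of all libraries each, with 49.7% between them. All mice were Diversity Outbred, an outbred stock that segregates the genomes of inbred founder strains, so that each mouse has a genotype of its own. All were fed a high-fat, high-sugar diet, labelled 45% fat, and none carried a transgene or drug treatment by the labels. Polyadenylated RNA was sequenced, and the labels used here give no age, batch or glycaemia of the mice. Each group is therefore a set of different mice sorted by a measured RNA, and not a treated and an untreated arm.

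Aldh1a3 encodes an enzyme that oxidises retinaldehyde to retinoic acid, the ligand of the retinoic acid receptors. Retinol is carried by binding proteins, converted to retinaldehyde by dehydrogenases, oxidised by the Aldh1a enzymes, and the resulting retinoic acid is broken down by the Cyp26 hydroxylases. In mouse islets, Aldh1a3 RNA and protein are low in healthy beta cells and are widely used to mark beta cells that have lost mature features in diabetic models.

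Since Aldh1a3 defined the groups, its levels are a description. Aldh1a3-high females had 3.27 to 24.8 CPM, with a median of 4.72, and Aldh1a3-low females had 0.199 to 1.36 CPM, with a median of 0.910. CPM are counts scaled to each library's total, and for other single genes also by TMM factors. Sums of CPM over a list used the total alone. Aldh1a3-high males had 11.2 to 209.3 CPM, with a median of 23.8, and Aldh1a3-low males had 0.302 to 2.10 CPM, with a median of 1.18. The groups were thus further apart in males: the mean gap on the deposited log2-like scale was 3.43 in males and 1.40 in females. At the upper boundary the last library inside was a female with a z-score of 0.487 and 3.49 CPM, and the first outside was a female at 3.42 CPM whose z-score rounds to the same value. At the lower boundary the last inside was a male with a z-score of -0.692 and 2.10 CPM, and the first outside was a female with a z-score of -0.676 and 1.28 CPM. The gene lies at chr7:66390890-66427517 on the minus strand of GRCm38.

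**Figure D1:**
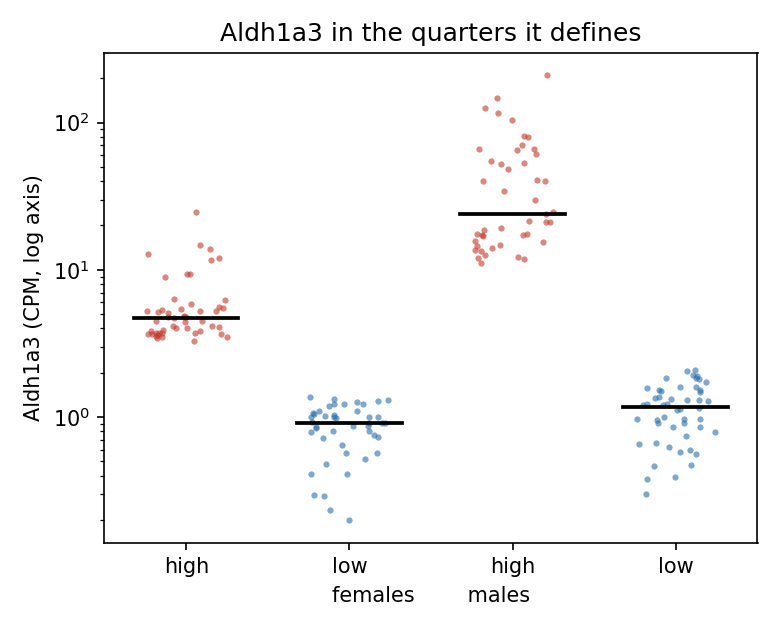
Aldh1a3 in CPM on a log axis for each library, by sex and z-score group. Males in the high group reached 209.3 CPM and females 24.8 CPM, while the low groups of both sexes stayed at or below 2.10 CPM. These values chose the groups.

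Library totals ran over 15.1 to 68.8 M counts across the collection, with a median of 34.8 M, and averaged 32.9 M in Aldh1a3-high and 33.1 M in Aldh1a3-low islets. The islet label was checked against the hormone genes: Ins1 and Ins2 together took 13.8% ± 4.15 of all counts in Aldh1a3-high and 12.1% ± 2.64 in Aldh1a3-low islets (SD, n = 95 each). Mitochondrially encoded genes took 3.01% ± 0.820 in Aldh1a3-high and 3.29% ± 0.585 in Aldh1a3-low islets (SD, n = 95 each). Mouse numbers were grouped into 4 bands of 100, although the labels do not say what the numbers stand for, and the bands held 24, 20, 20 and 31 Aldh1a3-high against 19, 29, 27 and 20 Aldh1a3-low islets. In bulk islets, fewer cells of a type and less RNA per cell cannot be told apart. Each mouse is a separate animal, so the p-values below measure the spread between mice.

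Before the values, the promoters of 4 retinoid genes that were higher in Aldh1a3-high islets are shown. These genes take part in retinoid breakdown, supply, transport and signalling. They include all 3 of the risen retinoid genes with a marked hexamer, so they do not stand for the risen genes as a whole. Each sequence is RefSeq's on GRCm38.p6, 250 bases before to 50 bases after an annotated start, 300 bases in all, on the gene's own strand. Capitals mark the hexamers AGGTCA or AGTTCA or GGTTCA, or their reverse complements, which are core motifs of nuclear receptor binding sites. Cyp26b1 (chr6:84593761-84594060, minus strand) has 0 of them, while Rxra (chr2:27709042-27709341, plus strand, 1 of its 2 listed starts), Bco1 (chr8:117095615-117095914, plus strand) and Rbp2 (chr9:98490287-98490586, plus strand) have 2 each, and in Bco1 these lie 1 base apart. The other Rxra start, not shown, has 0.
Cyp26b1: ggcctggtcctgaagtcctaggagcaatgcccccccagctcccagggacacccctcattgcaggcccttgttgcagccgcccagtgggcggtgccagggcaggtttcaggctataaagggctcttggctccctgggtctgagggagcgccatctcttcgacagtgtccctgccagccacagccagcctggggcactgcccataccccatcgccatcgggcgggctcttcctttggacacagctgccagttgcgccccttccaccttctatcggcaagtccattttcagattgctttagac
Rxra: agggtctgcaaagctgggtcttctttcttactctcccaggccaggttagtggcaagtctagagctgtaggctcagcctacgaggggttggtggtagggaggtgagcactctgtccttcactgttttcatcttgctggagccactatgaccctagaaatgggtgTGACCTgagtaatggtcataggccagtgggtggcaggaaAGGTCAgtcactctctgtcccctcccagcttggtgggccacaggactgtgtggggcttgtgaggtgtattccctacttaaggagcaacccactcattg
Bco1: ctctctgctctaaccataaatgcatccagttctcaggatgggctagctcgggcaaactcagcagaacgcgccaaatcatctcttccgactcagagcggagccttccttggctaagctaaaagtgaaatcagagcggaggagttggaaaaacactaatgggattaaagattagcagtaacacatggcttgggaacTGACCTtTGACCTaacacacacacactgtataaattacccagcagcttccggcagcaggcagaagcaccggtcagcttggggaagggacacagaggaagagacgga
Rbp2: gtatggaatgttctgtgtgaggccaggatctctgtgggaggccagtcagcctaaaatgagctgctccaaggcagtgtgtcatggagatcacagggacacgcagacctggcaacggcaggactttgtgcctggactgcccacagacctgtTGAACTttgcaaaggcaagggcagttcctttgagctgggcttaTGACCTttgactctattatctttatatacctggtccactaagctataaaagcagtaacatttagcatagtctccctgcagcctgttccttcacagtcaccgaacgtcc
Such a hexamer is common: 35.02% of 32851 mouse promoters of this length hold at least 1. Of the 10 retinoid genes that rose, 8 had a promoter in the RefSeq table (11 promoters in all), and 3 of these genes had a hexamer, each in 1 promoter. Since 35.02% is a share of promoters, it stands beside 3 of the 11 promoters and not 3 of the 8 genes. A direct repeat of the hexamer with a gap of 5 bases, the classic retinoic acid response element, was in 20 of all promoters (0.0609%) and in 0 of the 11. A match is a string of letters in this window and not a shown binding site, and sites further away were not searched.

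The first question was which genes went with high Aldh1a3 in islets of both sexes. Among genes with a mean of at least 2 CPM and 1 direction in both sexes and all bands, the 15 largest rises included Cyp26b1, Aass, Bcat1, Serpina7 and Gna14, and the 15 largest falls included Npy, Nnat, Trh and Dlk1. The rule asked for 1 direction in each sex and not for a call in each. All of these passed in males alone, but in females alone only the named rises passed and the named falls did not. Some genes outside this rule differed by more. Of 16862 genes tested besides Aldh1a3, 3925 (23.3%) were higher and 3863 (22.9%) lower in Aldh1a3-high islets, 46.2% in all, at an adjusted p under 0.05 (edgeR quasi-likelihood test with sex and number band as covariates, Benjamini-Hochberg). The median absolute log2 difference was 0.10, so most were small: 2.41% of the genes tested were higher and 0.629% lower by at least 1.5-fold. At least 2-fold, 63 were higher and 18 lower. In 0 genes were the groups free of overlap. Of the 7788 genes called, 6515 (83.7%) had the same sign in females alone, males alone and each of the 4 number bands, against 46.3% of all genes tested. These fits split the same libraries that gave the calls, and all genes tested include those called. The shares are therefore a description and not a replication. Within bands 1 to 4 alone, 2.47%, 4.50%, 11.7% and 4.25% of genes were higher and 1.29%, 3.88%, 9.02% and 4.18% lower, with fewer islets in each fit. The number of genes called depended on what else moved: with 8 cell type scores as covariates, 829 genes (4.92%) were higher and 973 (5.77%) lower, and 1709 of these were called in the same direction without the scores. Each score was the mean log2 CPM of the markers of 1 group, for acinar, duct, endothelial, stellate, macrophage, lymphocyte, alpha and delta or PP cells. Markers that make up a score were tested in these fits too, so a call they lost there is partly built in.

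Gna14, a G-protein alpha subunit of the Gq family, had the smallest p of all genes named. It was at 2.33 CPM in the lowest, 9.03 in the median and 36.5 in the highest Aldh1a3-high islet, against 1.94, 4.50 and 10.6 CPM in Aldh1a3-low islets, and was 2.20-fold higher (log2 1.14 ± 0.0964 SE, edgeR adjusted p = 3.03e-20). The ranges overlapped, yet 36 of the 95 Aldh1a3-high islets, 28 of them male, lay above every Aldh1a3-low islet. Serpina7, which encodes the thyroxine-binding globulin, spanned 7.43 to 380.6 CPM with a median of 41.5 in Aldh1a3-high and 6.85 to 101.4 CPM with a median of 20.9 in Aldh1a3-low islets (log2 1.32 ± 0.127 SE, edgeR adjusted p = 5.98e-17). Over the 4 equal bins of the z-score from low to high, its median was 20.9, 26.6, 28.7 and 41.5 CPM. Amino acid enzymes stood beside them. Aass, the first enzyme of lysine breakdown, had a median of 6.49 CPM in Aldh1a3-high and 2.18 CPM in Aldh1a3-low islets (log2 1.70 ± 0.208 SE, edgeR adjusted p = 8.51e-12). Bcat1, the cytosolic branched-chain aminotransferase, had medians of 6.21 CPM in Aldh1a3-high and 3.47 CPM in Aldh1a3-low islets (log2 1.40 ± 0.162 SE). Pycr1, which makes proline in mitochondria, had medians of 37.9 CPM in Aldh1a3-high and 25.5 CPM in Aldh1a3-low islets and was above the Aldh1a3-low median of its sex in 84 of 95 Aldh1a3-high islets (log2 0.77 ± 0.0767 SE).

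The other genes with the largest rises came from several sources. C1qtnf1, a secreted C1q-domain protein (log2 1.46), the water channel Aqp1 (1.39), Fn1 for fibronectin (1.26), the Ras-like Rasl10b (1.17) and the collagen genes Col3a1 (1.22) and Col1a1 (1.12) were among them. So were Pigr, the receptor that carries polymeric antibodies across epithelium (1.35), and the antibody genes Igha (1.495) and Igkc (1.19), which plasma cells make. Igha did not pass in females alone (1.00 ± 0.537 SE) but passed in males alone (1.59 ± 0.621 SE). Igkc passed in neither sex alone (1.39 ± 0.566 SE in females, 1.15 ± 0.635 SE in males). The trypsinogen Prss1 (1.46 ± 0.596 SE, edgeR adjusted p = 0.0353) rested on few islets: its median was 0.195 CPM in Aldh1a3-high and 0.0636 CPM in Aldh1a3-low islets, and its highest value was 456 CPM in Aldh1a3-high and 167.999 CPM in Aldh1a3-low islets. Counts of Prss1, Pigr and Fn1 were mostly fractional, a sign of reads shared between genes or transcripts. The genes with the smallest p also included small shifts. Golm1, a Golgi membrane protein, was higher (0.45), as was the GTPase regulator Stard13 (0.28), whereas Prkab1, a regulatory subunit of AMP-activated kinase (-0.32), the vitamin K reductase Vkorc1l1 (-0.26), Rassf8 (-0.42) and Rpia of the pentose phosphate pathway (-0.35) were lower.

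Among the genes that fell, Npy, the neuropeptide Y gene, was at 0.0317 CPM in the lowest, 7.37 in the median and 134 in the highest Aldh1a3-high islet, against 0.893, 31.6 and 192.7 CPM in Aldh1a3-low islets. The ranges overlapped widely, and 20 of 95 Aldh1a3-high islets were above the Aldh1a3-low median of their sex. Npy was 2.75-fold lower (log2 -1.46 ± 0.291 SE, edgeR adjusted p = 1.11e-05), and its medians over the 4 bins from low to high Aldh1a3 were 31.6, 21.3, 13.5 and 7.37 CPM. With the 8 scores it no longer passed the test (log2 -0.95). Nnat, an imprinted gene whose membrane protein takes part in insulin maturation in mouse beta cells, had medians of 17.5 CPM in Aldh1a3-high and 42.5 CPM in Aldh1a3-low islets (log2 -1.27 ± 0.173 SE, edgeR adjusted p = 4.25e-10). Trh, the thyrotropin-releasing hormone gene (-1.08), and the imprinted Dlk1 (-0.99) also fell. In females alone Npy, Nnat, Trh and Dlk1 did not pass, at log2 -1.02, -0.45, -0.30 and -0.23. In males alone they passed, at -2.04, -2.14, -1.88 and -1.80, in the same order. Mlph, which links Rab27a granules to myosin (-0.95), the activity-dependent transcription factor Npas4 (-0.88), the GTPase-activating Arhgap36 (-0.80), the ankyrin Ank1 (-0.77) and the long non-coding RNA Miat (-0.82) were lower as well. Other falls of that size were Slc28a2, a nucleoside transporter (-1.14), the ferritin pseudogene Ftl2-ps (-1.12), the neurotrophin receptor Ntrk3 (-1.001), Ddit4l (-0.83), and Cd79a, the B cell receptor chain (-0.80). Reads of a pseudogene and its parent gene may not be told apart, and counts of Ntrk3 and Ank1 were mostly fractional.

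**Figure D2:**
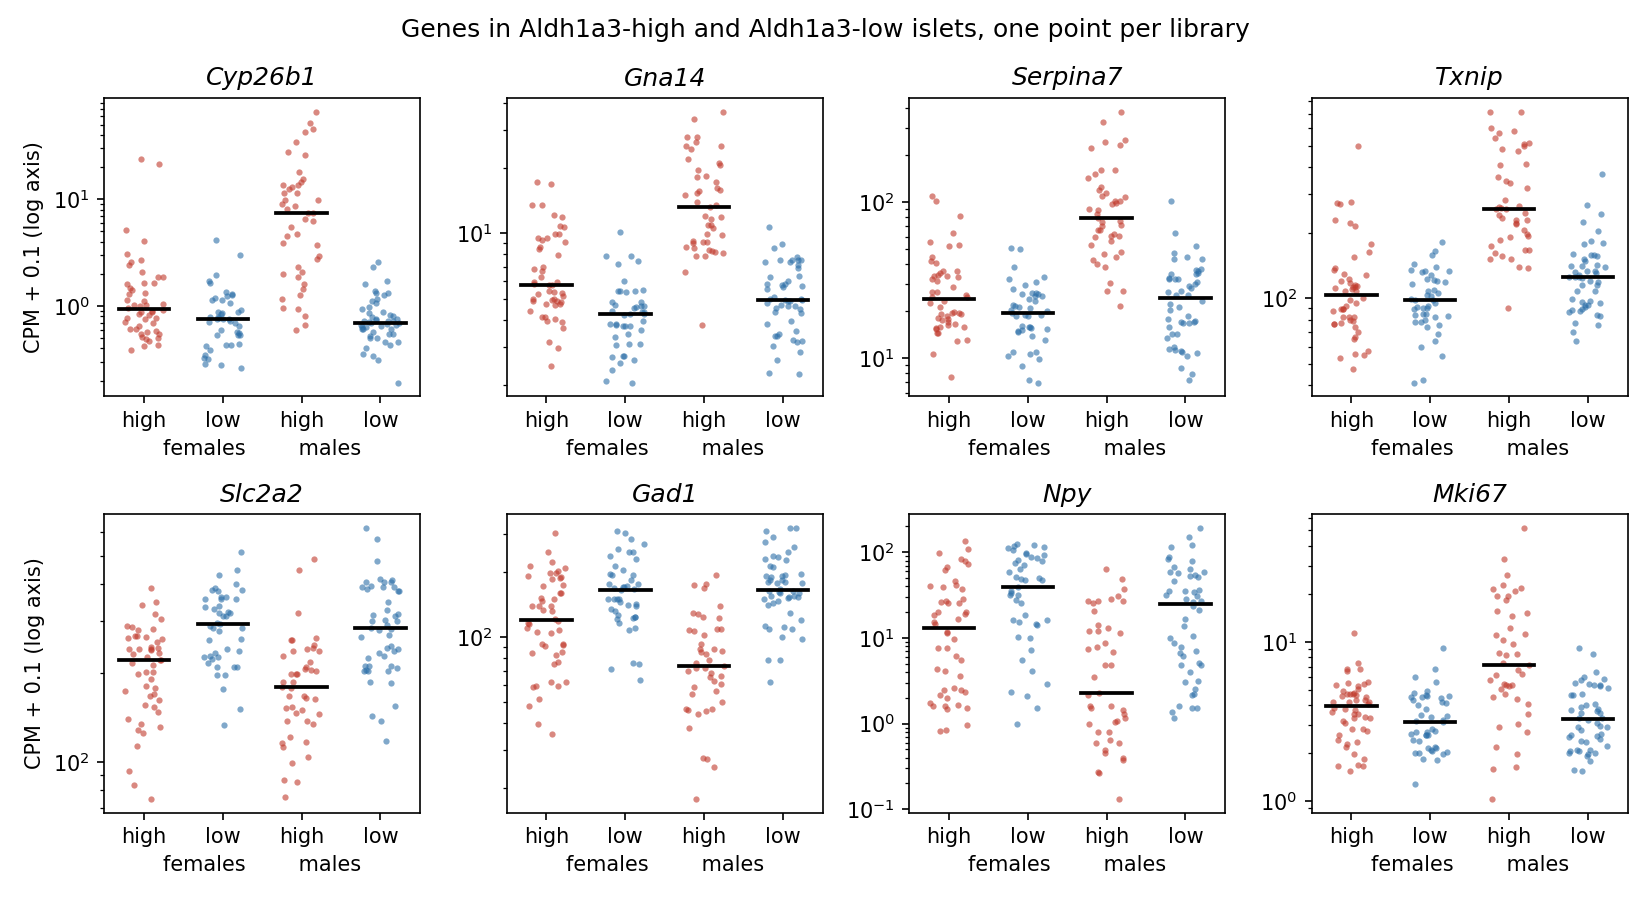
CPM on a log axis (with 0.1 added) of 8 genes in each library, by sex, with Aldh1a3-high islets left of Aldh1a3-low islets and bars at the medians. The shift in Cyp26b1, Gna14, Serpina7 and Txnip was upward and that in Slc2a2, Gad1 and Npy downward, with overlap in every gene. Mki67 was chosen for display after its values were seen.

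The retinoid pathway was the first group examined. Here and below, list counts of the fit of both sexes stand beside 23.3% of all genes higher and 22.9% lower. Of 15 genes of retinoid synthesis and breakdown tested, 5 rose and 1 fell, beside 23.3% and 22.9% of all genes, and the list's median log2 difference was 0.04. Cyp26b1, the hydroxylase that degrades retinoic acid, stood far from the rest. It was at 0.284 CPM in the lowest, 1.55 in the median and 66.2 in the highest Aldh1a3-high islet, against 0.0908, 0.617 and 4.03 CPM in Aldh1a3-low islets. In males, 32 of 45 Aldh1a3-high islets lay above every Aldh1a3-low islet, and in females 3 of 50 did. These 3 females were at 5.03, 21.3 and 23.5 CPM, so the fitted difference in females leans on few islets. The fitted difference was 6.11-fold (log2 2.61 ± 0.240 SE, edgeR adjusted p = 2.76e-18), with log2 1.16 in females and 3.78 in males, and was 1.07 with the 8 scores. The medians of the 4 bins from low to high were 0.617, 0.656, 0.696 and 1.55 CPM, so the rise was in the top bin. In number bands 1 to 4 alone the log2 difference was 2.03, 2.48, 3.73 and 1.60. Dhrs3, a reductase that turns retinaldehyde back into retinol, spanned 1.66 to 14.8 CPM with a median of 4.64 in Aldh1a3-high and 1.27 to 5.97 CPM with a median of 3.30 in Aldh1a3-low islets (log2 0.61 ± 0.0720 SE, edgeR adjusted p = 1.41e-12).

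The other synthesis genes that passed were smaller or less stable. Aldh1a2, another retinaldehyde dehydrogenase, had medians of 1.01 CPM in Aldh1a3-high and 0.647 CPM in Aldh1a3-low islets (log2 0.56 ± 0.209 SE, edgeR adjusted p = 0.0196). Bco1, which cleaves beta-carotene into retinaldehyde, had medians of 8.22 CPM in Aldh1a3-high and 6.43 CPM in Aldh1a3-low islets (log2 0.56 ± 0.128 SE), with log2 0.03 in females and 1.06 in males. Rdh14, a retinol dehydrogenase, was higher by log2 0.07, and Dhrs4, a reductase of retinaldehyde, was lower by log2 -0.13. The 9 that did not pass lay between -0.36 and 0.19. Of these 6 genes, Aldh1a2, Bco1 and Rdh14 no longer passed with the 8 scores, and 2 genes of the list rose and 2 fell in that fit. Without number band 4, 3 rose.

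Among carriers of retinoids, 3 of 6 rose and 1 fell, with a median log2 difference of 0.23. Fabp5, which delivers retinoic acid to a nuclear receptor of the PPAR family, had medians of 10.04 CPM in Aldh1a3-high and 7.89 CPM in Aldh1a3-low islets (log2 0.34 ± 0.0723 SE, edgeR adjusted p = 3.05e-05). The cellular retinol-binding proteins Rbp7 (0.45) and Rbp2 (0.26) rose at medians below 1 CPM. Rbp4, the retinol carrier of plasma and, in islets, a delta cell gene, was lower (log2 -0.45 ± 0.0880 SE, edgeR adjusted p = 7.24e-06). Its medians were 157.03 CPM in Aldh1a3-high and 155.1 CPM in Aldh1a3-low females, and 68.2 CPM in Aldh1a3-high and 120.3 CPM in Aldh1a3-low males. Of 8 receptors and targets, 2 rose and 1 fell. Rxra, the shared partner of nuclear receptors, spanned 19.4 to 74.1 CPM with a median of 37.6 in Aldh1a3-high and 18.3 to 43.9 CPM with a median of 28.1 in Aldh1a3-low islets (log2 0.34 ± 0.0399 SE, edgeR adjusted p = 7.58e-13). Tgm2, a transglutaminase induced by retinoic acid in many cells, was higher (0.38), mostly from fractional counts. Rara, a retinoic acid receptor, was lower by log2 -0.14, but at log2 0.05 in females and 0.01 with sex as the only covariate. Rarb, a receptor gene that retinoic acid induces, did not pass (log2 0.19 ± 0.115 SE, edgeR adjusted p = 0.182). The retinoid genes Lrat and Cyp26c1 were not analysed here.

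Progenitor and dedifferentiation genes were mixed: 4 of 8 tested rose and 1 fell, beside 23.3% and 22.9% of all genes, with a median log2 difference of 0.10. With the 8 scores 1 of the 8 genes rose and 0 fell. With the 6 scores other than alpha and delta or PP, 0 rose and 0 fell. Gast, which encodes gastrin, a hormone that beta cells of diabetic mice can make, was at 0.0419 CPM in the lowest, 0.385 in the median and 37.4 in the highest Aldh1a3-high islet, against 0, 0.242 and 1.11 CPM in Aldh1a3-low islets. A minority carried the difference, since 15 of 95 Aldh1a3-high islets lay above every Aldh1a3-low islet (log2 1.90 ± 0.236 SE, edgeR adjusted p = 1.18e-11). Neurog3, the endocrine progenitor factor, rose by log2 0.36 ± 0.128 SE, with medians of 2.17 CPM in Aldh1a3-high and 1.88 CPM in Aldh1a3-low islets. Cd81, a tetraspanin that marks immature beta cells in mouse, rose by log2 0.35 and Myc by 0.15, although Myc was at -0.07 with the 8 scores. Mycl, a Myc relative, fell by 0.50 on the log2 scale. The 3 members that did not pass lay between -0.08 and 0.04.

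The beta cell transcription factors did not fall together, and their shares called lay near those of all genes. Of 16 tested, 3 rose (18.75%) and 3 fell (18.75%), beside 23.3% and 22.9% of all genes. The 10 that did not pass lay between -0.13 and 0.01. Rfx6, a factor of endocrine development and insulin secretion, spanned 29.4 to 230.4 CPM with a median of 81.3 in Aldh1a3-high and 29.3 to 188.8 CPM with a median of 61.1 in Aldh1a3-low islets (log2 0.49 ± 0.0714 SE, edgeR adjusted p = 3.86e-09). Pax6 (0.15) and Mlxipl, which encodes ChREBP (0.12), rose by less. Foxo1, whose loss from the nucleus marks failing beta cells in mouse, had medians of 80.7 CPM in Aldh1a3-high and 91.5 CPM in Aldh1a3-low islets (log2 -0.19 ± 0.0342 SE, edgeR adjusted p = 7.19e-07). Mafa, a factor of mature beta cells, fell by 0.52 on the log2 scale (± 0.149 SE, edgeR adjusted p = 0.00217), with medians of 7.43 CPM in Aldh1a3-high and 5.87 CPM in Aldh1a3-low females, and 7.93 CPM in Aldh1a3-high and 11.5 CPM in Aldh1a3-low males. Its sign turned to log2 0.15 without the number band as covariate, and its highest value was 428 CPM in Aldh1a3-high and 706 CPM in Aldh1a3-low islets, so a few islets weighed heavily on its level. Hnf4a fell by 0.16.

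Of 21 hormone and mature function genes of beta cells, 6 rose (28.6%) and 9 fell (42.9%), beside 23.3% and 22.9% of all genes. Those that rose were mostly hormones and granule cargo. Ins2 had medians of 93699 CPM in Aldh1a3-high and 85921 CPM in Aldh1a3-low islets (log2 0.18 ± 0.0460 SE, edgeR adjusted p = 0.000639), and Ins1 34949 CPM in Aldh1a3-high and 29736 CPM in Aldh1a3-low islets (log2 0.21 ± 0.0536 SE). Reads of Ins1 and Ins2 are partly shared. Iapp, the amylin gene (0.16), the carboxypeptidase Cpe (0.13), the sulfonylurea receptor Abcc8 (0.16) and the fatty acid receptor Ffar1 (0.12) also rose, and none of these 6 passed with the 8 scores. In females alone 0 of the 21 rose: Ins1 was at log2 0.05, Ins2 at 0.04, Iapp at 0.01 and Cpe at 0.01 in females, against 0.38, 0.30, 0.32 and 0.24 in males, and all 4 passed the test of the difference between the sexes. Those that fell serve glucose entry, sensing and secretion. Slc2a2, the glucose transporter GLUT2, spanned 74.7 to 486 CPM with a median of 199.2 in Aldh1a3-high and 117 to 622 CPM with a median of 289.6 in Aldh1a3-low islets (log2 -0.50 ± 0.0696 SE, edgeR adjusted p = 7.72e-10). Only 8 of 95 Aldh1a3-high islets were above the Aldh1a3-low median of their sex, and the medians of the 4 bins from low to high were 289.6, 272.7, 234.5 and 199.2 CPM. Trpm5, a calcium-activated cation channel of beta cells, fell by 0.55 and in 33 of 95 Aldh1a3-high islets was below every Aldh1a3-low islet. The incretin receptor Gipr (-0.37), the granule tether Sytl4 (-0.29), the zinc transporter Slc30a8 (-0.23), urocortin 3 (Ucn3, -0.22), Ppp1r1a (-0.18) and the potassium channel subunit Kcnj11 (-0.10) fell by less. With the 8 scores, 3 of the 21 still fell, namely Slc2a2 (-0.25), Gipr (-0.18) and Ucn3 (-0.20).

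Genes that mature beta cells normally keep silent rose more often than they fell, 8 against 2 of 19, with a median log2 difference of 0.15. These are 42.1% and 10.5% of the list, beside 23.3% and 22.9% of all genes. Ldha, lactate dehydrogenase A, had medians of 25.2 CPM in Aldh1a3-high and 17.7 CPM in Aldh1a3-low islets (log2 0.52 ± 0.0773 SE, edgeR adjusted p = 7.72e-09), and Mgll, a monoacylglycerol lipase, rose by 0.34. With the 8 scores neither Ldha (0.15) nor Mgll (0.02) passed, 1 gene of the list rose and 3 fell. Of all genes tested, only 4.92% were higher and 5.77% lower in that fit. Other cells of an islet also express these genes, and which cells carried the differences was not tested. The cytoskeletal Zyx fell by 0.39 and by 0.31 with the scores.

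**Figure D3:**
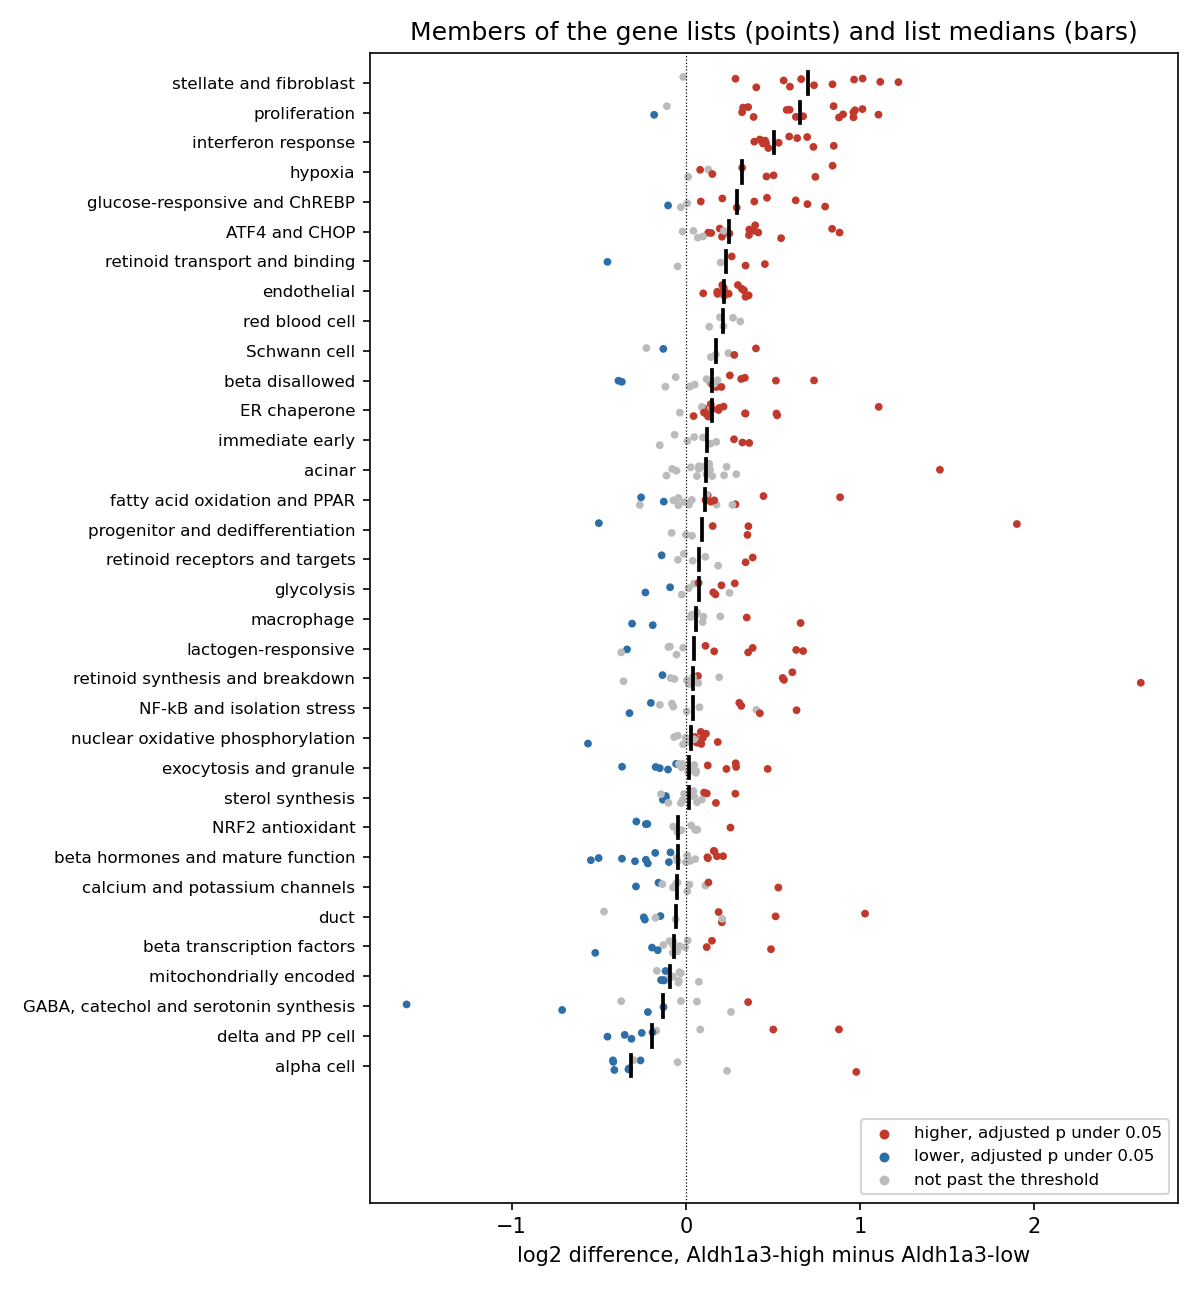
Log2 difference, Aldh1a3-high minus Aldh1a3-low, of each gene in the lists, with filled points for genes that passed the test and a bar at each list's median. The interferon, endothelial and ER chaperone lists lie wholly or nearly to the right of 0, while beta transcription factors and mature function genes lie on both sides.

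Genes of alpha cells fell in males, while 0 of them passed in females. Of 10 alpha cell genes 1 rose and 6 fell, and of 9 delta and PP cell genes 2 rose and 5 fell. These falls depended on the covariates: with sex alone as covariate 1 alpha gene and 4 delta and PP genes fell, with the 6 scores other than alpha and delta or PP 0 of either list fell, and without number band 4 the counts were 7 and 3. In males alone 2 alpha genes rose and 7 fell, beside 10% of all genes called in females and 46.6% in males. Of the 9 delta and PP genes, 3 rose and 0 fell in females alone, with a median log2 difference of 0.19. In males alone 2 of them rose and 6 fell, with a median of -0.56. The difference between the sexes passed its own test for 8 of the 10 alpha genes and 8 of the 9 delta and PP genes. Gcg, the glucagon gene, had medians of 20830 CPM in Aldh1a3-high and 22081 CPM in Aldh1a3-low females, and 7381 CPM in Aldh1a3-high and 14626 CPM in Aldh1a3-low males. Gc, the vitamin D-binding protein, which alpha cells express, went the other way: it spanned 49.8 to 984 CPM with a median of 150.6 in Aldh1a3-high and 27.3 to 254.2 CPM with a median of 88.8 in Aldh1a3-low islets (log2 0.98 ± 0.112 SE, edgeR adjusted p = 3.37e-13). Among delta cell genes, the ghrelin receptor Ghsr was at log2 0.29 in females and -0.99 in males, whereas the leptin receptor Lepr (0.50) and the somatostatin receptor Sstr1 (0.88) rose. Summed over the list, alpha cell genes had a median of 16699 CPM in Aldh1a3-high and 18783 CPM in Aldh1a3-low islets, and delta and PP genes 2764 CPM in Aldh1a3-high and 2795 CPM in Aldh1a3-low islets.

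Of 18 exocytosis and granule genes, 5 rose and 5 fell, beside the 23.3% and 22.9% of all genes. Stx1a, a plasma membrane syntaxin, fell (log2 -0.37 ± 0.0457 SE, edgeR adjusted p = 1.51e-11), while the granin Chgb rose (0.47 ± 0.0780 SE), at log2 -0.01 in females and 0.99 in males. Of 12 calcium and potassium channel genes 2 rose and 2 fell. Kcnk16, the beta and delta cell potassium channel TALK-1, had medians of 55.6 CPM in Aldh1a3-high and 39.97 CPM in Aldh1a3-low islets (log2 0.53 ± 0.0642 SE, edgeR adjusted p = 4.47e-12). Atp2a2, the ER calcium pump SERCA2, fell by 0.16.

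Most genes of protein folding and of the stress response rose. Of 18 ER chaperone and degradation genes 16 rose and 0 fell, with a median log2 difference of 0.15. Derl3, a component of ER-associated degradation, spanned 1.36 to 127 CPM with a median of 12.9 in Aldh1a3-high and 1.69 to 25.5 CPM with a median of 5.95 in Aldh1a3-low islets (log2 1.11 ± 0.139 SE, edgeR adjusted p = 2.21e-11), and 19 of 45 Aldh1a3-high males lay above every Aldh1a3-low male. Herpud1 (0.52), the secreted Creld2 (0.52) and Sel1l (0.34) of the same branch followed. Of 19 ATF4 and CHOP targets 14 rose and 0 fell, with a median log2 difference of 0.25. Nupr1, a stress-induced chromatin protein, had medians of 144.004 CPM in Aldh1a3-high and 73.5 CPM in Aldh1a3-low islets (log2 0.88 ± 0.139 SE, edgeR adjusted p = 3.97e-08). The enzymes Phgdh of serine synthesis (0.42) and Aldh18a1 of proline synthesis (0.25) and the mTORC1 inhibitor Ddit4 (0.36) rose too. With the 8 scores, 2 of the chaperone genes and 8 of the ATF4 and CHOP targets still rose and 0 fell. In females alone 2 of the 18 chaperone genes and 4 of the 19 targets rose, against 16 of each list in males alone, and the difference between the sexes passed its own test for 9 chaperone genes and 5 targets, beside 22.7% of all genes.

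Of 18 cell division genes 16 rose and 1 fell, with a median log2 difference of 0.65. On the deposited variance-stabilised scale, which compresses low values, that median was 0.25. Cenpf, a kinetochore protein of dividing cells, had medians of 1.01 CPM in Aldh1a3-high and 0.648 CPM in Aldh1a3-low islets (log2 1.11 ± 0.146 SE, edgeR adjusted p = 1.20e-10). Rrm2, which makes deoxynucleotides, spanned 1.20 to 9.45 CPM with a median of 3.26 in Aldh1a3-high and 0.799 to 5.33 CPM with a median of 2.34 in Aldh1a3-low islets (log2 0.58 ± 0.0783 SE). Cdc20, an activator of mitotic exit, rose by 0.96. Mki67, the division marker, chosen after its values were seen, had medians of 4.60 CPM in Aldh1a3-high and 3.08 CPM in Aldh1a3-low islets (log2 0.88 ± 0.132 SE), and the member that fell was the replication clamp Pcna (-0.18), likewise named afterwards. With the 8 scores 10 of the 18 rose and 1 fell. In females alone 7 rose, in males alone 16, and 15 of the 18 differed between the sexes. Which cells divided cannot be told from bulk RNA.

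Metabolic genes moved in several directions. Of 11 genes that respond to glucose through ChREBP, 8 rose and 1 fell, with a median of 0.29. In females alone 1 rose and 0 fell, with a median of 0.08, and in males alone 8 rose and 1 fell, with a median of 0.51. Of all genes, 10% were called in females and 46.6% in males. Txnip, the thioredoxin-interacting protein that glucose induces, spanned 47.5 to 717 CPM with a median of 161.04 in Aldh1a3-high and 41.01 to 369.3 CPM with a median of 108.3 in Aldh1a3-low islets (log2 0.80 ± 0.0960 SE, edgeR adjusted p = 3.20e-12). Txnip was at log2 0.31 in females alone, where it did not pass, and at 1.26 in males alone. The G-protein regulator Rgs16 (0.63) and the fructose enzyme Tkfc (0.29) rose, and with the 8 scores 3 of the 11 rose and 0 fell. Of 9 hypoxia targets, 3 rose in females alone and 7 in males alone. In the fit of both sexes 7 rose and 0 fell, with a median of 0.32. These included the kinase Pdk1 (log2 0.46 ± 0.0560 SE, edgeR adjusted p = 4.45e-12), the collagen hydroxylase P4ha1 (0.32), the oxygen sensor Egln3 (0.84) and the peptide Adm (0.74), and 2 of the 9 rose with the scores. Of 19 genes of fatty acid oxidation and PPAR, 7 rose and 2 fell, among them Cpt1a, the gate of mitochondrial fatty acid entry (0.29), Acadvl (0.13), the lipid droplet coat Plin2 (0.45) and Angptl4 (0.89). In females alone 1 of the 19 rose and 1 fell, and in males alone 7 rose and 1 fell. Glycolysis (5 of 11 rose, 2 fell), nuclear oxidative phosphorylation (7 of 19 rose, 1 fell) and sterol synthesis (4 of 16 rose, 3 fell) were mixed. Of 13 mitochondrially encoded genes 0 rose and 4 fell, mt-Nd1 among them (-0.14). Without number band 4, 0 sterol genes and 1 mitochondrially encoded gene fell.

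Interferon-induced genes rose in both sexes. All 12 genes tested rose, with a median log2 difference of 0.50. In females alone 9 rose and in males alone 8, with list medians of 0.51 in females and 0.54 in males, and 0 of the 12 passed the test of the difference between sexes, beside 22.7% of all genes. The male groups were further apart in Aldh1a3, however. Per log2 unit of Aldh1a3 over all libraries, Bst2 did differ between the sexes (0.35, females minus males, edgeR adjusted p = 0.0192). Isg15, Mx1 and Usp18 did not pass per log2 unit. Isg15, a ubiquitin-like interferon product, spanned 3.96 to 203.4 CPM with a median of 28.8 in Aldh1a3-high and 1.76 to 143.6 CPM with a median of 18.7 in Aldh1a3-low islets (log2 0.73 ± 0.136 SE, edgeR adjusted p = 2.41e-06). The antiviral Mx1 (0.85), the tether Bst2 (0.64) and the protease Usp18 (0.53) rose, all with ranges that overlapped widely, and counts of Mx1 and Usp18 were mostly fractional. With the 8 scores 5 of the 12 rose and 0 fell.

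Counts for the remaining response lists stand beside 23.3% of all genes higher and 22.9% lower. Of 12 NF-kB and isolation stress genes 4 rose and 2 fell, of 10 immediate early genes 3 rose and 0 fell, and of 11 NRF2 antioxidant genes 1 rose and 3 fell. Among these, Srxn1 (-0.28) and the glutathione synthesis subunit Gclm (-0.22) fell and catalase (Cat, 0.26) rose. Of 12 lactogen-responsive genes 6 rose and 1 fell, with Wipi1 of autophagy (0.63), the signalling inhibitor Cish (0.38) and the serotonin-making Tph2 (0.36) among those that rose. Of 9 genes of GABA, catecholamine and serotonin handling 1 rose and 4 fell. Gad1, which makes GABA in beta cells, spanned 17.6 to 303.96 CPM with a median of 93.0 in Aldh1a3-high and 61.96 to 322.1 CPM with a median of 165.5 in Aldh1a3-low islets (log2 -0.71 ± 0.0972 SE, edgeR adjusted p = 4.53e-10). Its relative Gad2 had medians of 0.656 CPM in Aldh1a3-high and 1.67 CPM in Aldh1a3-low islets (log2 -1.60 ± 0.211 SE), and Abat, which degrades GABA, fell by 0.13. Gad1 and Gad2 were still lower with the 8 scores, at -0.41 and -1.42.

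Markers of other pancreatic cells moved with Aldh1a3 as well. All 13 endothelial genes and 11 of 12 stellate and fibroblast genes rose, with median log2 differences of 0.22 and 0.70. The pericyte receptor Pdgfrb spanned 4.68 to 52.7 CPM with a median of 12.4 in Aldh1a3-high and 4.08 to 17.2 CPM with a median of 9.21 in Aldh1a3-low islets (log2 0.56 ± 0.0715 SE, edgeR adjusted p = 3.09e-11), and Rgs5 of the same cells rose by 0.60. The endothelial adhesion gene Esam (0.30 ± 0.0305 SE, edgeR adjusted p = 1.39e-15) and the VEGF receptor Flt1 (0.34) rose. The stellate list summed to 86.7 to 1602 CPM with a median of 203.98 in Aldh1a3-high and 103.8 to 273.9 CPM with a median of 157.4 in Aldh1a3-low islets. The endothelial list summed to 468 to 1271 CPM with a median of 706 in Aldh1a3-high and 449 to 1008 CPM with a median of 619 in Aldh1a3-low islets. These medians were higher in Aldh1a3-high islets, and in each marker list 0 of the genes were at 0 throughout.

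The exocrine and immune lists were examined in the same way. Of 19 acinar genes, Prss1 alone passed, and the list summed to a median of 3139 CPM in Aldh1a3-high (134 to 29536) and 3082 CPM in Aldh1a3-low islets (234.2 to 86745). Outside the list, and named after their values were seen, 1810009J06Rik (log2 3.09), Gm2663 (2.72), Gm10334 (1.84) and Gm5771 (1.71), which lie on chromosome 6 as Prss1 does, passed too. Each had a median under 1 CPM in both groups, and whether they share reads with Prss1 was not tested. Of 11 duct genes 4 rose and 3 fell, with Spp1, osteopontin, higher (1.03, fractional counts) and Epcam lower (-0.24), and sums with medians of 1088 CPM in Aldh1a3-high (733 to 5006) and 983 CPM in Aldh1a3-low islets (752 to 1793). Of 12 macrophage genes 2 rose and 2 fell, with the lysosomal Cd68 lower (-0.31) and the mannose receptor Mrc1 higher (0.66), and sums with medians of 70.6 CPM in Aldh1a3-high (40.3 to 181.4) and 73.7 CPM in Aldh1a3-low islets (46.1 to 131.2). The 2 lymphocyte genes tested gave 0 rises and 1 fall, 7 Schwann cell genes 2 rises and 1 fall, and 5 red blood cell genes neither. All list sums took in every listed gene with counts in the data, tested or not, so the acinar sums held 20 genes. Over 11 lymphocyte genes the sums had medians of 6.94 CPM in Aldh1a3-high and 7.80 CPM in Aldh1a3-low islets. In the same order, 7 Schwann cell genes summed to medians of 12.0 and 11.3 CPM, and 6 red blood cell genes to 26.7 and 25.3 CPM. The part of these cells in the differences of other genes was not tested beyond the fit with the 8 scores.

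A second question was whether the difference was alike in the sexes. In females alone 875 genes were higher and 813 lower, 10% of those tested, and in males alone 4062 and 3802, or 46.6%. Both sexes called 1175 genes, 1139 of them with the same sign, and across all genes Spearman's rho between the female and male differences was 0.46, a description in which genes are not independent. The difference itself differed between females and males for 3836 genes (22.7%, edgeR interaction test), and in 3561 of these it was larger in males. Since the male groups were further apart in Aldh1a3, the test was repeated per log2 unit of Aldh1a3 over all libraries, an alternative added after the data were seen, and 1237 genes passed, 953 of them among the 3836 and all 953 with the same sign. Without number band 4, 2493 genes passed the interaction test.

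The 5 genes with the smallest p for this difference were all higher in Aldh1a3-high males. Smpdl3a, an acid phosphodiesterase, was at log2 0.13 in females and 0.95 in males, and Nucb2, a calcium-binding secreted protein, at 0.13 and 1.16, in the same order. Nucb2 spanned 143.3 to 950 CPM with a median of 269.9 in Aldh1a3-high and 97.6 to 214.1 CPM with a median of 155.1 in Aldh1a3-low males, and 31 of 45 Aldh1a3-high males lay above every Aldh1a3-low male. The ER-phagy receptor Ccpg1 and the autophagy gene Map1lc3b were at 0.01 in females and at 0.45 and 0.46 in males, and the mitophagy receptor Bnip3l at -0.09 in females and 0.44 in males. These 5 genes differed between the sexes per log2 unit of Aldh1a3 too. Counts of Ccpg1 and Map1lc3b were mostly fractional.

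**Figure D4:**
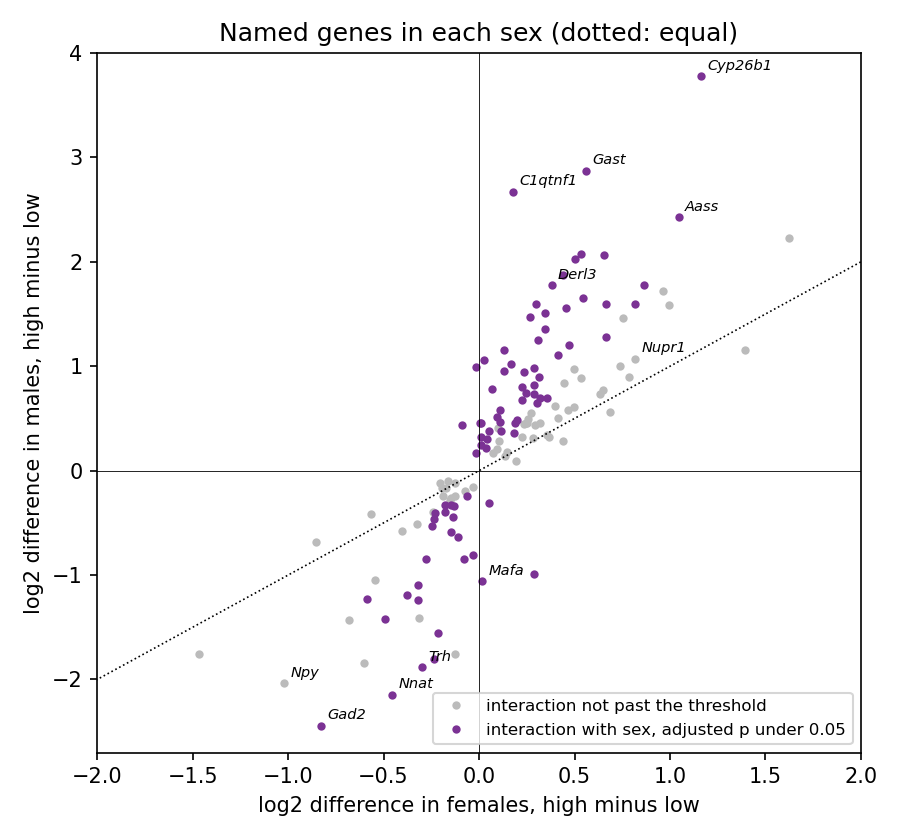
Log2 difference, Aldh1a3-high minus Aldh1a3-low, in males (vertical axis) against females (horizontal axis) for the genes of the text. The points lie mostly on the same side of 0 in both sexes and further from 0 in males, for example Cyp26b1 at 3.78 in males and 1.16 in females. The axes differ in scale.

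The mice segregate founder haplotypes, so genes beside Aldh1a3 were listed last. Within 5 Mb of its start, taken as the lower coordinate whatever the strand, 43 genes were tested, of which 12 rose and 9 fell. That is 48.8% called, beside 46.2% of all genes, and their median log2 difference was 0.00. Lrrk1 is a kinase gene whose annotated span lies just below Aldh1a3 in coordinates (chr7:66226912-66388350). Lrrk1 spanned 0.581 to 6.31 CPM with a median of 2.57 in Aldh1a3-high and 0.707 to 3.51 CPM with a median of 1.60 in Aldh1a3-low islets, and 88 of 95 Aldh1a3-high islets were above the Aldh1a3-low median of their sex. It rose by log2 0.71 ± 0.0756 SE (edgeR adjusted p = 1.36e-14), 0.54 in females and 0.89 in males, and by 0.52 with the 8 scores. 1810008I18Rik, which starts 0.588 Mb below Aldh1a3 in coordinates, had medians of 7.80 CPM in Aldh1a3-high and 4.33 CPM in Aldh1a3-low islets (log2 0.99 ± 0.0857 SE, edgeR adjusted p = 9.80e-20), the smallest p in this window. Below 1 CPM in the median, Apba2, a neuronal adaptor gene, fell by 0.76 and RP24-78M9.6 by 1.40. Lins1, on the other side of Aldh1a3 at a higher level, fell by 0.25. Reads of Lrrk1 and Aldh1a3 that run beyond the annotated ends of either gene cannot be told apart here. Whether the sources used here counted reads by strand is not given. Genotypes were not used here, and their part in these values was not tested.

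**Figure D5:**
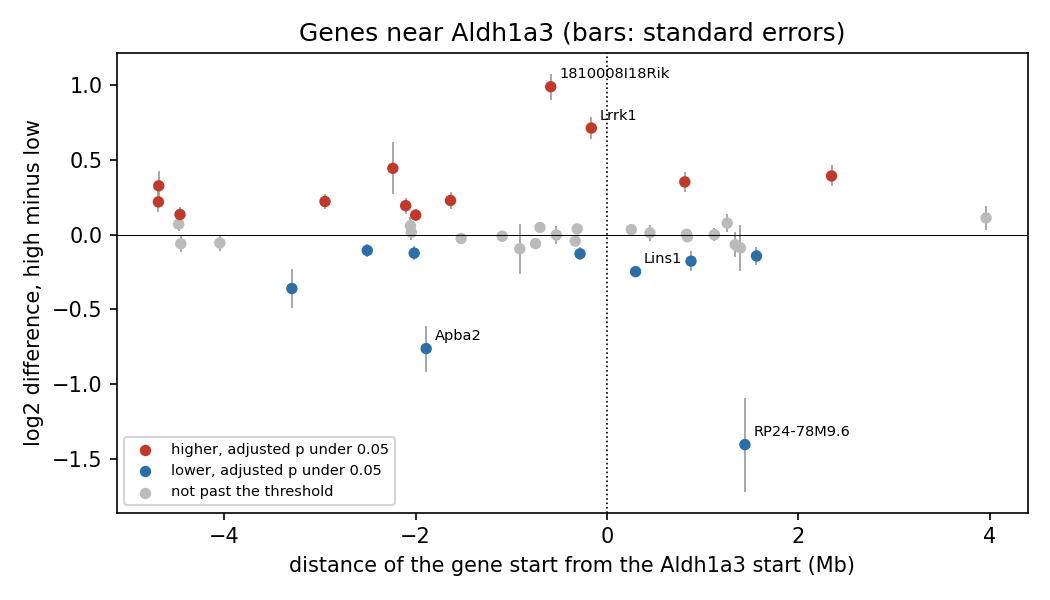
Log2 difference, Aldh1a3-high minus Aldh1a3-low, of the 43 genes within 5 Mb of the Aldh1a3 start against their distance in Mb, with bars of 1 SE. 1810008I18Rik at 0.99 and Lrrk1 at 0.71 lie above the rest and RP24-78M9.6 at -1.40 lies lowest, with most others near 0.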

How the data were processed

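Poly(A) RNA of 378 islet samples was measured. The deposited expected counts for 22180 genes and the deposited log2-scale variance-stabilised values were used, and gene starts and ends in Mb came from the authors' table. Per the submitters' processing notes the build was GRCm38 and DESeq2 was used, with aligner, counter and strand setting not given in the sources used here. Of the deposited counts, 67.7% were whole (tolerance 0), so counts were rounded. Those of Aldh1a3 itself were whole in only 4 libraries (1.06%). The values that chose the groups may therefore include reads shared with other genes and are uncertain too. Counts were fractional in most libraries for Tgm2, Neurog3, Mlxipl, Ins1, Ins2, Trpm5, Ldha, Zyx, Lepr, Phgdh, Cenpf, Txnip, Rgs16, Usp18, Mx1, Gad2, Cish, Acadvl, Prss1, Spp1, Gclm, Pigr, Fn1, Ftl2-ps, Ntrk3, Miat, Ank1, Rpia, Ccpg1 and Map1lc3b, whose reads may be shared with other genes, so their values are uncertain.

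The 190 libraries of both groups were fitted with edgeR 4.0.16 in R 4.3.3 (TMM, filterByExpr, quasi-likelihood F test, Benjamini-Hochberg at 0.05) with sex, number band and group; the scripts were tested on simulated data. Standard errors are the log2 difference over the root of F. Groups drawn from the counts shared 89.5% of high and 88.4% of low libraries. Alternatives used DESeq2 1.42.0, limma 3.58.1, size factors, other filters, covariates, group bounds and subsets. Figures and tables used Python 3.11.15, NumPy 2.4.6, SciPy 1.17.1, pandas 2.3.3 and matplotlib 3.10.9. Named genes were the 15 with the largest rise and the 15 with the largest fall (mean CPM of at least 2, passing, 1 sign in both sexes and all 4 bands, no placeholder symbol), the 10 with the smallest p, up to 4 per list by p, retinoid, progenitor and beta cell members at issue, passing genes within 5 Mb, and 5 for the interaction with sex. The groups and the 35 lists were chosen with earlier results of these data known. Foxd3, Cpa3, Onecut1, Nkg7, Pou5f1, Pax4, Lrat and Cyp26c1 were not analysed here, and some genes that the rule names are not reported here.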

Additional observations from a re-analysis of the deposited data

Results flagged for a closer look

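Among the genes whose values the text gives, 82 passed the edgeR test of a difference between the sexes, and each is listed with its interaction, which is the log2 difference between Aldh1a3-high and Aldh1a3-low islets in females minus that in males. In all 82 the difference was the larger in males, in 6 the sexes had opposite signs, and 13 also passed per log2 unit of Aldh1a3. Aldh1a3-high and Aldh1a3-low males were further apart in Aldh1a3 than females, and how much of each value comes from that was not tested beyond the fit per log2 unit. These values come from 1 family of 16862 tests, with adjusted p under 0.05.

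The 6 with opposite signs were Rdh14 (-0.18), Rara (0.38), Mafa (1.16), Ghsr (1.32), Chgb (-0.998) and Bnip3l (-0.55).

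Among retinoid and progenitor genes the values were Cyp26b1 (-2.59), Dhrs3 (-0.64), Bco1 (-0.99), Rbp4 (0.78) and Gast (-2.49). For beta cell genes they were Rfx6 (-0.44), Ins1 (-0.32), Ins2 (-0.28), Iapp (-0.33), Cpe (-0.24), Trpm5 (0.55), Gipr (0.46), Sytl4 (0.31), Mgll (-0.47) and Zyx (0.31). Endocrine hormone, receptor and secretory genes gave Gcg (0.76), Gc (-1.35), Lepr (-0.51), Stx1a (0.55), Kcnk16 (-0.36) and Atp2a2 (0.21). ER, stress and division genes gave Derl3 (-1.45), Herpud1 (-0.38), Creld2 (-0.60), Sel1l (-0.28), Aldh18a1 (-0.25), Cenpf (-1.17), Rrm2 (-0.72), Cdc20 (-1.14) and Mki67 (-1.27). Metabolic, hypoxia and GABA genes gave Txnip (-0.98), Rgs16 (-0.68), Tkfc (-0.42), Pdk1 (-0.36), P4ha1 (-0.27), Egln3 (-0.76), Gad2 (1.61), Gad1 (0.75), Cpt1a (-0.35), Acadvl (-0.18), Plin2 (-0.74), Angptl4 (-1.05) and Srxn1 (0.22). Markers of other cells gave Pdgfrb (-0.56), Col3a1 (-0.84), Rgs5 (-0.91), Spp1 (-1.07), Epcam (0.21) and Cd79a (0.88). Of the genes with the largest rises and falls, the values were Aass (-1.397), C1qtnf1 (-2.52), Bcat1 (-0.88), Aqp1 (-1.53), Serpina7 (-1.53), Fn1 (-1.55), Rasl10b (-1.45), Gna14 (-0.93), Nnat (1.71), Trh (1.57), Dlk1 (1.57), Mlph (0.88), Npas4 (0.57), Miat (1.29) and Ank1 (0.81). The remaining genes were Prkab1 (0.19), Vkorc1l1 (0.15), Golm1 (-0.47), Rpia (0.21), Pycr1 (-0.70), Stard13 (-0.19), Smpdl3a (-0.86), Ccpg1 (-0.46), Map1lc3b (-0.46), Nucb2 (-1.07), 1810008I18Rik (-0.64) and Lins1 (0.20).

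The 13 that also passed per log2 unit, all with the same sign, were Bnip3l, C1qtnf1, Ccpg1, Chgb, Ghsr, Iapp, Mafa, Map1lc3b, Miat, Nucb2, Rgs5, Smpdl3a and Stx1a. Outside the 82, Apba2 (-0.41), Bst2 (0.35), Cd81 (0.20), Esam (0.085) and Lrrk1 (0.19) passed per log2 unit only, as females minus males.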

How the results depend on the processing

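With 6 scores, without the endocrine pair, 5.05% of the genes tested were higher and 5.52% lower, and with 8 scores 4.92% and 5.77%. Females alone gave 5.19% higher and 4.82% lower. Bands 1 to 4 alone gave 2.47%, 4.50%, 11.7% and 4.25% higher and 1.29%, 3.88%, 9.02% and 4.18% lower, with fewer islets in each fit. The interaction with sex was called for 2493 genes without band 4 and for 1237 per log2 unit. Both of these were added after the data were seen. Of 3257 values for the genes of the text under 23 alternatives, 2697 kept direction and side of the threshold, 540 lost the call, 1 gained it and 19 turned, and the cause was not tested. Those that turned were Aldh1a2 (-0.15) and Rarb (-0.0052) in band 2, Rbp2 in bands 1 (-0.12) and 4 (-0.15), Kcnj11 in band 2 (0.016) and between the outer 10% groups (0.00053), and Ddit4l between the outer 10% groups (1.11). With sex as the only covariate Rara (0.0058) and Mafa (0.15) turned. In females alone Rdh14 (-0.018), Rara (0.050), Mafa (0.016), Ghsr (0.29), Chgb (-0.013) and Bnip3l (-0.088) turned. With 6 and with 8 scores, Myc (-0.074 and -0.068) and Col1a1 (-0.17 and -0.15) turned. Genes that make up a score were tested against that score, so their changes under these settings are partly built in. The median log2 difference of all genes was within 0.0126 of 0 under every alternative. Genes under about 1 CPM rest on few counts, and 3 counts are 0.175 CPM in the shallowest library used. No paired analysis was possible because each mouse number occurs once.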

Other observations

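Some large differences fall outside the naming rule because the genes are low in CPM or carry placeholder symbols, and the genes here were chosen after their values were seen. Opcml, a neuronal adhesion gene, averaged 1.96 CPM in Aldh1a3-high and 0.303 CPM in Aldh1a3-low islets (log2 2.39 ± 0.253 SE, edgeR adjusted p = 1.32e-14). Vstm2a, Ankrd34b, the potassium channel subunit Kcns3 and Ccdc85a were higher by log2 1.86, 1.62, 1.52 and 1.46, each with a mean under 4 CPM in Aldh1a3-high islets. The apolipoprotein gene Apob was higher by log2 1.83, with medians of 0.699 CPM in Aldh1a3-high and 0.361 CPM in Aldh1a3-low islets.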
